A study of Danio rerio with 10 samples.

Results

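The genes described here are 7 that serve the granules, the granule release and the leukotriene synthesis of neutrophils: mpx, lyz, srgn, vamp8, alox5ap, mmp9 and mmp13a. They were taken as every probe set whose only gene symbol in the platform annotation is one of these names, which gave 10 probe sets of the 15502 tested, for 7 of the 8793 genes named by a single symbol. Of these, 4 belong to mpx and 1 to each other gene. The RNA came from the kidney marrow of 5 zebrafish that overexpress human CREB, which regulates transcription downstream of cyclic AMP, and of 5 control fish. The promoter that drives human CREB, the genotype of the control fish, and the strain, age and leukaemia status of the fish are not given in the sources used here. The title of the study concerns leukaemia and a block of myeloid differentiation under CREB overexpression. The p-values measure the spread between these fish.

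Kidney marrow is the main blood-forming tissue of the adult zebrafish, and neutrophils are among its most abundant cells. As neutrophils mature, they fill granules with antimicrobial proteins and proteases, which are released when vesicle SNARE proteins fuse the granule with a target membrane. Stimulated neutrophils also make leukotrienes, lipid attractants formed from arachidonic acid by 5-lipoxygenase together with its activating protein. In RNA from a whole tissue, fewer cells of a type and less RNA per cell cannot be told apart.

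The arrays had median log2 signals between 5.72 and 5.93. CREB fish 3 and 5 stood apart, with a gapdh 3′ probe set that exceeded the gapdh 5′ probe set by 4.89 and 4.46 on the log2 scale, against 1.06 to 1.53 on the other 8 arrays. On CREB fish 1, 2 and 4 the 9 probe sets for spiked bacterial and phage controls averaged 7.20, 7.71 and 5.67, against 10.61 and 9.69 on CREB fish 3 and 5 and 9.03 to 9.71 in control fish. Transcripts of other tissues were present. The mean level of 18 skeletal muscle genes was 7.16 to 9.67 in CREB fish, against 4.76 to 5.26 in control fish, and that of 17 kidney tubule and glomerulus genes was 7.83 to 8.78 in CREB fish, against 7.04 to 7.79 in control fish. Gonad and egg genes were at 5.10 to 7.59 in CREB fish, against 9.66, 7.97 and 9.58 in control fish 3, 4 and 5 and 5.27 to 6.0 in control fish 1 and 2. Exocrine pancreas genes were at 6.34 to 7.05 in CREB fish, against 9.87 and 10.84 in control fish 4 and 5 and 6.14 to 7.0 in control fish 1, 2 and 3. The 14 erythroid genes measured were at 7.62 to 9.18 in CREB fish, against 8.20 to 8.87 in control fish. The part of these differences in the results that follow was not tested, except where a value without the arrays is given.

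Of the 10 probe sets, 4 fell in CREB fish, none rose and 6 did not pass (limma, Benjamini-Hochberg adjusted p under 0.05 over all 15502 probe sets). The genes that fell were alox5ap, vamp8, srgn and lyz. Over all probe sets 30.3% were called, 6.79% lower and 23.5% higher, and among probe sets with a mean log2 signal of 8 or more 10.8% were called lower. The remaining 3 genes, mpx, mmp13a and mmp9, did not pass. The median difference of the 7 genes, each by its brightest probe set, was -0.83, beside a median of 0.18 over all probe sets. That overall shift depends on the scaling, being -0.01 under cyclic loess and 0.04 under quantile normalization. It also depends on dim probe sets, being -0.03 over those with a mean log2 signal of 6 or more and 0.01 without the dimmest 40%. Relative to the 0.18, the 4 genes that fell were at -2.06 (alox5ap), -1.70 (vamp8), -2.61 (srgn) and -0.77 (lyz). All 4 had a mean log2 signal above 8, so these values overstate their falls against probe sets of 6 or more. Without control fish 3, 4 and 5, or without control fish 4 and 5, 2 probe sets passed, those of alox5ap and vamp8.

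**Figure D1:**
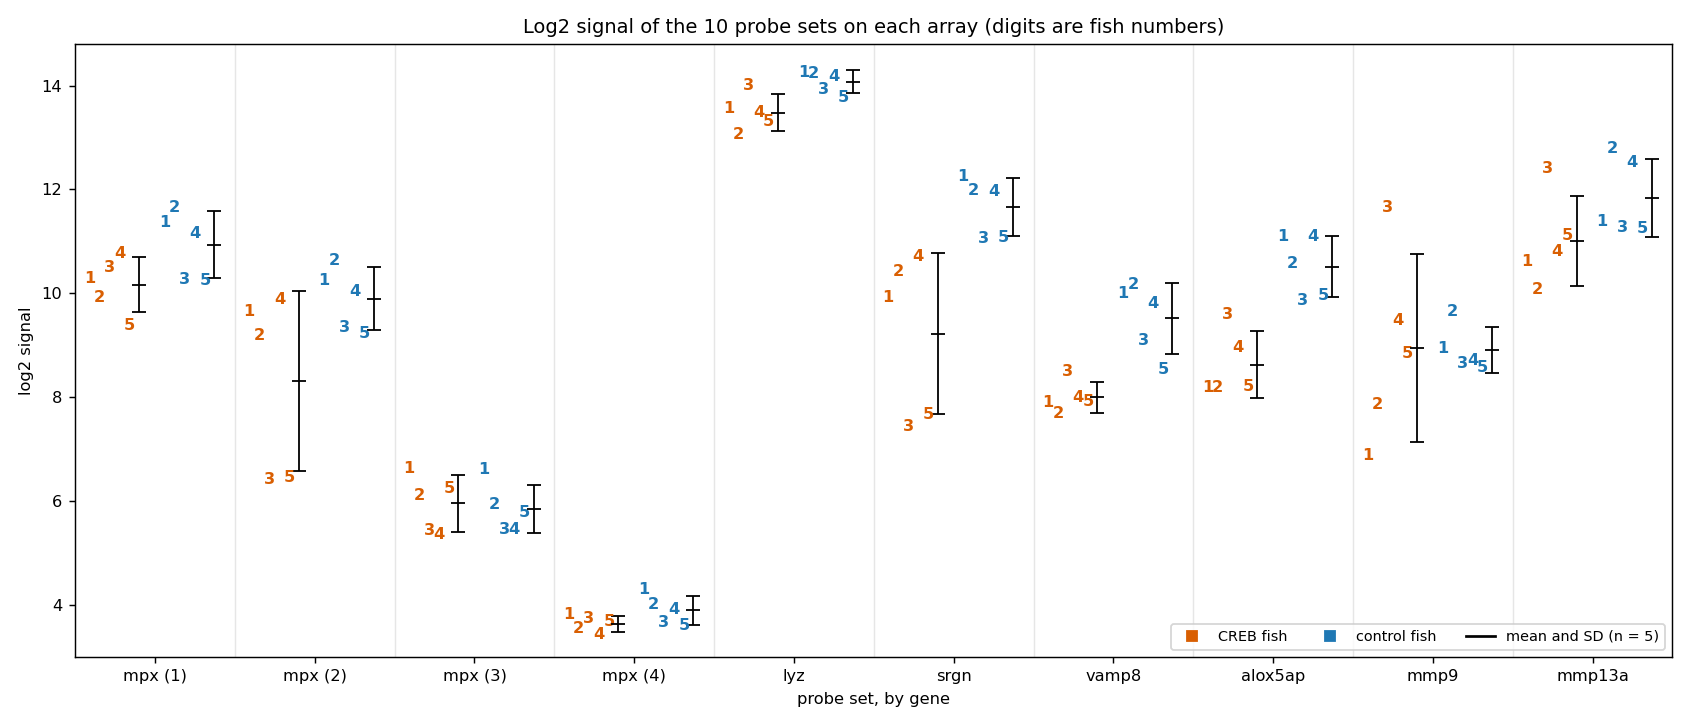
The vertical axis gives the log2 signal of each of the 10 probe sets, with a digit for each CREB fish (orange, left) and control fish (blue, right) and the mean and SD of each group (n = 5). For alox5ap, vamp8 and srgn the CREB fish all lie below the control fish, CREB fish 3 and 5 lie apart in srgn and in the second mpx probe set, and mmp9 in CREB fish runs from 6.88 to 11.66.

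The leukotriene gene alox5ap encodes the 5-lipoxygenase activating protein, which hands arachidonic acid to the enzyme. Its log2 signal was 8.19, 8.18, 9.60, 8.96 and 8.20 in CREB fish 1 to 5, against 11.09, 10.58, 9.86, 11.09 and 9.95 in control fish 1 to 5. The groups did not overlap, with CREB fish 3 the closest to the control fish. The same absence of overlap, with CREB below control, held for 4.2% of all probe sets, and for 3 of the 10 probe sets of the 7 genes; the reverse, every CREB fish above every control fish, held for 19.6% of all probe sets and for none of the 10. The gene fell 3.69-fold, a log2 difference of -1.89 ± 0.35 (SE, n = 5 per group; adjusted p = 0.00712 by limma). It passed under all 22 alternatives run, with adjusted p from 0.00156 to 0.0476, and was at -2.07 without CREB fish 3 and 5.

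The vesicle SNARE gene vamp8, whose protein brings granules to fusion in secretory blood cells of mammals, had the narrowest spread among CREB fish of the 7 genes, 0.81 from lowest to highest. Its log2 signal was 7.90, 7.69, 8.49, 8.0 and 7.91 in CREB fish 1 to 5, against 10, 10.16, 9.09, 9.80 and 8.53 in control fish 1 to 5. The highest CREB fish and the lowest control fish were 8.49 and 8.53, so the groups did not overlap but nearly met. The gene fell 2.87-fold, a log2 difference of -1.52 ± 0.31 (SE, n = 5 per group; adjusted p = 0.00891 by limma). This call too held under all 22 alternatives, with adjusted p from 0.00175 to 0.0380.

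The gene srgn encodes serglycin, the proteoglycan core protein that packs proteases into granules. Its log2 signal was 9.91, 10.41, 7.43, 10.70 and 7.67 in CREB fish 1 to 5, against 12.24, 11.98, 11.05, 11.95 and 11.08 in control fish 1 to 5. No CREB fish reached a control fish, and CREB fish 3 and 5 lay far below the other CREB fish. The log2 difference was -2.44 ± 0.66 (SE, n = 5 per group; adjusted p = 0.0227 by limma). Without CREB fish 3 and 5, the arrays with the raised gapdh 3′ to 5′ difference, it was -1.32 (adjusted p = 0.0405), and without control fish 3, 4 and 5 it was -2.89 and did not pass (adjusted p = 0.122). Without control fish 4 and 5 it did not pass either, at -2.53 (adjusted p = 0.0854).

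The lysozyme gene lyz, whose product cleaves the bacterial cell wall and which is a standard neutrophil marker in zebrafish, was the brightest of the 7, above 99.8% of all probe sets in mean signal. Its log2 signal was 13.55, 13.06, 14.01, 13.48 and 13.30 in CREB fish 1 to 5, against 14.25, 14.24, 13.93, 14.18 and 13.76 in control fish 1 to 5. CREB fish 3 lay inside the control range and the other 4 CREB fish lay below it. The gene fell 1.51-fold, by 0.59 ± 0.18 in log2 units (SE, n = 5 per group; adjusted p = 0.0336 by limma). Whether signals this bright are compressed was not tested. The call was lost in 11 of 22 alternatives, in each case with the same direction, among them those that left out CREB fish 1, 2 or 5 or control fish 1, 2 or 4 (adjusted p 0.0572 to 0.0745 for these 6, and 0.00798 to 0.114 over all 22).

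The gene mpx encodes myeloperoxidase, the granule enzyme that makes hypochlorous acid and the usual label of zebrafish neutrophils. Its 4 probe sets did not give 1 pattern. The brightest was at 10.28, 9.92, 10.49, 10.76 and 9.38 in CREB fish 1 to 5, against 11.37, 11.65, 10.26, 11.15 and 10.25 in control fish 1 to 5. Control fish 3 and 5 lay among the CREB fish, and only CREB fish 2 and 5 lay below every control fish. The log2 difference of -0.77 ± 0.34 (SE, n = 5 per group) did not pass (limma, adjusted p = 0.107), with a 95% interval from -1.53 to -0.01 before adjustment. Of the 22 alternatives only the fit with array weights brought it past the threshold, at -1.10 (adjusted p = 0.0170).

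The second mpx probe set in order of mean signal was at 9.65, 9.18, 6.41, 9.88 and 6.46 in CREB fish 1 to 5, against 10.25, 10.63, 9.34, 10.04 and 9.23 in control fish 1 to 5. CREB fish 3 and 5 were far below every other fish here, whereas in the brightest probe set CREB fish 3, at 10.49, lay inside the control range and CREB fish 5, at 9.38, was the lowest of all. The log2 difference of -1.58 ± 0.73 (SE, n = 5 per group) did not pass (limma, adjusted p = 0.119). It was -0.33 when CREB fish 3 and 5 were left out. The third, near the middle of all probe sets in mean signal, differed by 0.11 ± 0.30, and its sign turned under cyclic loess (-0.04). The fourth averaged 3.64 ± 0.15 in CREB fish, against 3.9 ± 0.28 in control fish (n = 5 each, SD), below the mean of 17 control probe sets for artificial tag sequences (4.33 in CREB fish, against 4.08 in control fish), so no fold is given. It did not pass (limma, adjusted p = 0.189), and it passed, lower in CREB fish, under quantile normalization and cyclic loess (adjusted p = 0.0243 and 0.0216).

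**Figure D2:**
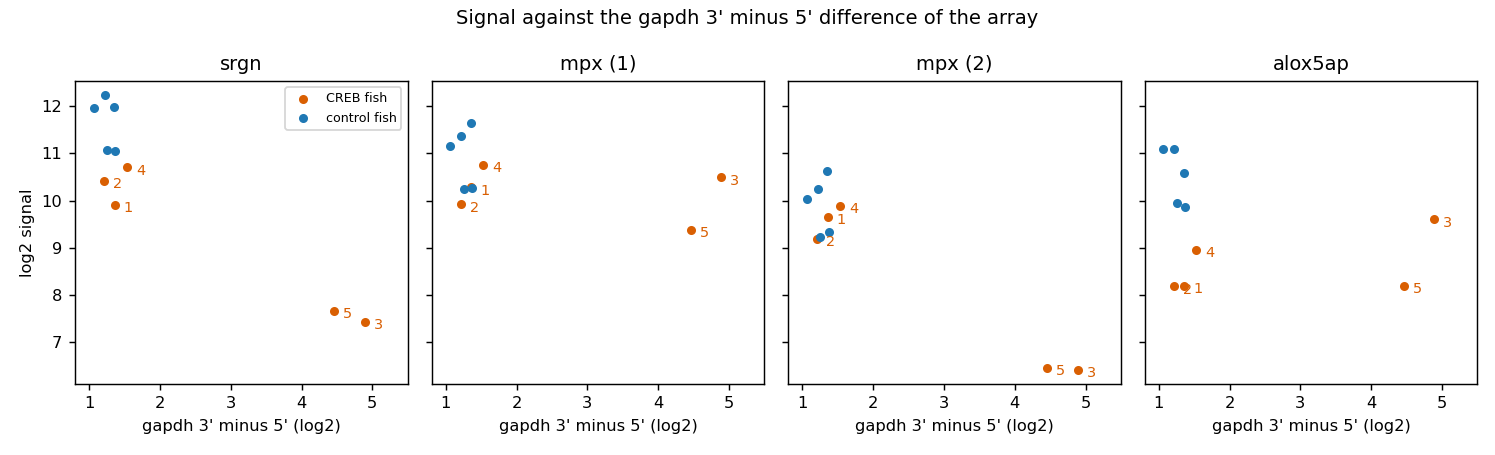
Each panel plots the log2 signal of 1 probe set against the log2 difference between the gapdh 3′ and 5′ probe sets of the same array, for CREB fish (orange, numbered) and control fish (blue). CREB fish 3 and 5, at 4.89 and 4.46 on the horizontal axis, are the lowest arrays for srgn and the second mpx probe set and include the highest CREB fish for alox5ap, while CREB fish 5 is also the lowest for the first mpx probe set.

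The drop of CREB fish 3 and 5 was shared by srgn and the second mpx probe set, and by few others. In srgn these fish lay 2.24 below the lowest of the other 8 arrays on the log2 scale, a gap that 0.219% of all probe sets matched. In the second mpx probe set the gap was 2.72, matched by 0.0774% of all probe sets. A gap of at least 1 was seen in 203 of 15502 probe sets (1.31%), and in none of the other 8 probe sets of the 7 genes. The gapdh 5′ probe set, at 6.50 and 6.74 in these fish against 9.54 to 10.70 on the other 8 arrays, was also lowest there. Where along the transcript each probe set lies was not analysed here.

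The matrix metalloproteinase genes mmp13a and mmp9 encode secreted proteases of collagen and gelatin, made by neutrophils and by other cells. The log2 signal of mmp13a was 10.62, 10.08, 12.40, 10.81 and 11.12 in CREB fish 1 to 5, against 11.39, 12.79, 11.27, 12.52 and 11.24 in control fish 1 to 5. All CREB fish but fish 3 lay below the control fish, and CREB fish 3 was inside the control range. The difference of -0.83 ± 0.46 (SE, n = 5 per group) did not pass (limma, adjusted p = 0.181) in the comparison as designed or in any alternative, and without CREB fish 3 it was -1.18 (adjusted p = 0.0530).

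The gelatinase gene mmp9 varied most. Its log2 signal was 6.88, 7.85, 11.66, 9.48 and 8.84 in CREB fish 1 to 5, against 8.94, 9.65, 8.65, 8.71 and 8.57 in control fish 1 to 5. CREB fish 3 was 2.18 above the next CREB fish, CREB fish 1 and 2 were below every control fish, and the control fish lay close together. The SD was 1.81 in CREB fish, against 0.44 in control fish, and 0.903% of all probe sets had an SD in CREB fish at least as large. The difference of 0.04 ± 0.74 (SE, n = 5 per group) did not pass (limma, adjusted p = 0.971), and its 95% interval, from -1.61 to 1.69, does not show that the groups are alike. Without CREB fish 3 the difference was -0.64 (adjusted p = 0.336).

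**Figure D3:**
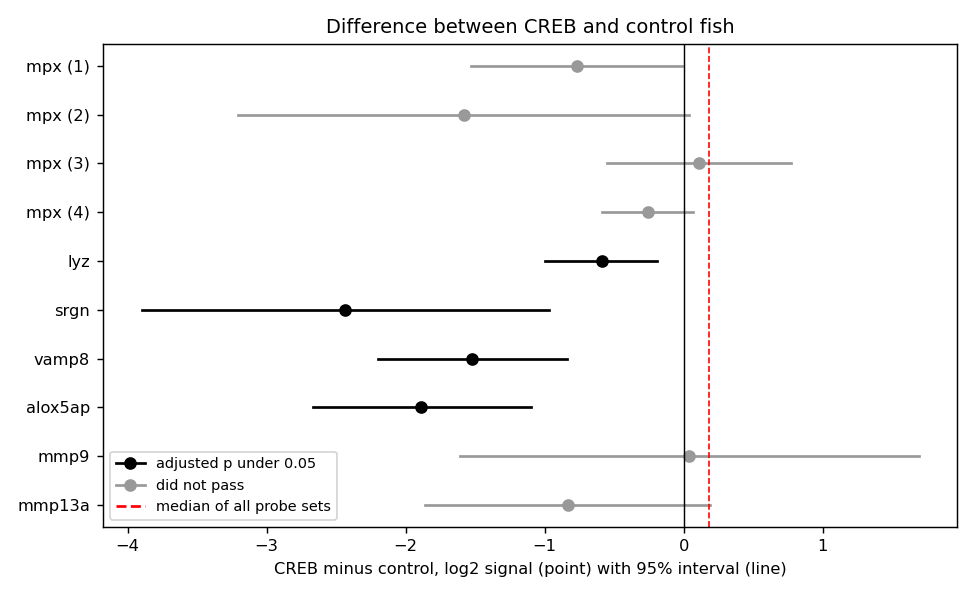
The points give the log2 difference CREB minus control of the 10 probe sets and the lines its 95% interval from the limma fit. The 4 black probe sets (lyz, srgn, vamp8 and alox5ap) passed at an adjusted p under 0.05, the grey ones did not, and the dashed line is the median of all probe sets, 0.18.

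Fish by fish, the 7 genes were low together in most CREB fish, with CREB fish 3 as the exception. Each gene was taken by its brightest probe set and each CREB fish was set against the lowest control fish of that gene. CREB fish 2 was below it in 7 of 7 genes, CREB fish 1 and 5 in 6, CREB fish 4 in 5 and CREB fish 3 in 3. In CREB fish 1 the exception was mpx, in CREB fish 5 mmp9, and in CREB fish 4 mpx and mmp9. In all, 27 of 35 pairs of a gene and a CREB fish were below, a count between 26 and 28 under the 3 other scalings. Over all probe sets 17.5% of such pairs were below, from 11.8% in CREB fish 4 to 23.6% in CREB fish 5. These shares were not matched for brightness. The 7 genes were chosen with earlier results of these data known, so the contrast is no separate evidence. The 35 pairs come from 5 fish and from genes that vary together, so they are not independent. CREB fish 3 was the highest of the CREB fish in 5 genes, lyz, vamp8, alox5ap, mmp9 and mmp13a, while it was the lowest in srgn. Over all probe sets it was the highest in 20.4% and the lowest in 21.0%.

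The control fish shared which of them were low. Control fish 3 and 5 were the 2 lowest in all 7 genes, with fish 3 the lowest in srgn and alox5ap and fish 5 in the other 5, and the same 2 fish were lowest in 33.8% of all probe sets, and control fish 2 was the highest in mpx, vamp8, mmp9 and mmp13a. In addition, control fish 3 and 5 had the highest gonad and egg levels of the 10 arrays. Against the mean of the control fish, control fish 5 was at -0.98 for vamp8, -0.68 for mpx and -0.31 for lyz, and control fish 2 at 0.65, 0.71 and 0.17. Among CREB fish, the muscle level was 9.67, 7.88, 7.16, 8.64 and 9.48 in fish 1 to 5. Fish 3, the highest in 5 of the genes, had the lowest muscle level and a raised gapdh 3′ to 5′ difference. Fish 2, with the next lowest muscle level, was the lowest CREB fish in lyz, vamp8, alox5ap and mmp13a. What part muscle RNA has in the order of the fish was not tested.

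**Figure D4:**
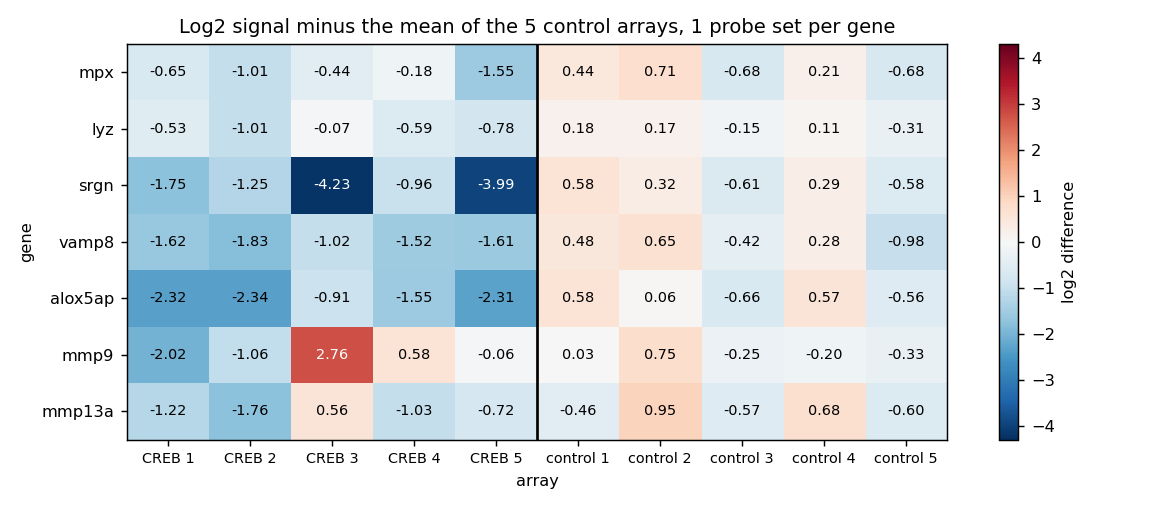
Each cell gives the log2 signal of a gene (rows, by its brightest probe set) on an array (columns, CREB fish left of control fish) minus the mean of the 5 control fish, with blue for lower and red for higher. CREB fish 1, 2 and 5 are negative in all 7 genes, CREB fish 3 holds both the lowest value (srgn, -4.23) and the highest (mmp9, 2.76), and control fish 3 and 5 are negative throughout.

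The pairs of genes that followed each other most closely over the 10 arrays were vamp8 with alox5ap (Pearson's r = 0.939), lyz with alox5ap (0.926) and lyz with vamp8 (0.918). These are descriptions over 10 arrays that share the group difference. With each fish expressed as its deviation from its own group's mean they were 0.772, 0.834 and 0.804. Over the 21 pairs of the 7 genes the median r was 0.66, and 0.68 for the deviations. The 4 pairs with a negative r of the deviations all held srgn, with mmp9 (-0.494), mmp13a (-0.447), lyz (-0.238) and alox5ap (-0.032). Against the control mean, srgn was at -4.23 and -3.99 in CREB fish 3 and 5, and at -1.75 to -0.96 in the other CREB fish. In the other gene of each of these 4 pairs, CREB fish 3 was the highest CREB fish. Without CREB fish 3 and 5 the median r of the 21 pairs was 0.83. Among 5807 other named probe sets with a mean log2 signal of 6 or more, alox5ap was 5th and vamp8 7th in likeness to lyz, and by the deviations they were at places 31 and 56. For the other members, the nearest of the 7 was at place 6 (mmp13a), 13 (alox5ap), 16 (vamp8), 62 (mmp9), 161 (mpx) and 1046 (srgn).

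The genes most like each of the 7 were chosen as the 3 named genes with the highest r over the 10 arrays. That r holds the group difference, so genes like a member that fell tend to fall too. Their falls are therefore no separate evidence. For lyz they were prkcda, a protein kinase C gene, with mcrip1 and wtap (r from 0.945 to 0.971), and prkcda fell by 1.79 ± 0.32 in log2 units (SE; adjusted p = 0.00625 by limma). For alox5ap they were cd82b, a tetraspanin gene that fell by 1.09 ± 0.19, cds2, and the complement gene c4b, which fell by 1.94 ± 0.49 (SE; adjusted p = 0.00523 and 0.0184 by limma; r from 0.960 to 0.982). For vamp8 they were the arrestin gene arrb2a, sdf4 and nosip (r of 0.97 each), all of which fell. For srgn they were ufc1, the interferon gamma receptor gene ifngr2 and the tetraspanin gene tspan14 (r from 0.984 to 0.987), which fell too. For mpx they were reep5, tmem106a and sfxn2 (r from 0.959 to 0.972). Of these, tmem106a and sfxn2 fell, narrowly past the threshold (limma, adjusted p = 0.0498 and 0.0497). For mmp13a they were hsd3b7, cxcr4b and nicol1 (0.849 to 0.917), and for mmp9 tmem214, aup1 and arrdc2 (0.830 to 0.862). By the deviations, the r of these 21 genes with their member ran from 0.803 to 0.976. None of these 21 genes was 1 of the 7.

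In the list of neutrophil granule proteins and their protease partners, 11 genes other than the 7 were measured, of which 1 fell, 1 rose and 9 did not pass. The counts of this list and of the lists below stand beside 6.79% lower and 23.5% higher over all probe sets. Among probe sets with a mean log2 signal of 8 or more, 10.8% were called lower. The carboxypeptidase gene cpa5, a mast cell marker in zebrafish, fell by 1.45 ± 0.34 and grnas rose by 1.30 ± 0.28 on the log2 scale (SE, n = 5 per group; adjusted p = 0.0141 and 0.0110 by limma). The peptidylarginine deiminase gene padi2 differed by -0.06 ± 0.16 and the annexin gene anxa1a by 0.12 ± 0.33 (SE), and neither passed. The median of the 11 was -0.34, beside 0.18 over all probe sets and -0.03 over those with a mean log2 signal of 6 or more. The elastase genes ela2 and ela2l, at -1.14 ± 1.09 and -1.22 ± 1.18 (SE), did not pass. With cpa5 they had the lowest differences of the 11, and all of these are also in the exocrine pancreas list. The whole list, with its members of the 7, had a median of -0.38, and of -0.06 without CREB fish 3 and 5.

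Of 23 other granule and vesicle release genes, 1 fell, 3 rose and 19 did not pass, with a median of -0.09. The target-membrane SNARE gene stx4 fell by 0.70 ± 0.22, and the early endosome GTPase genes rab5aa and rab5c rose by 0.77 ± 0.16 and 0.48 ± 0.14 (SE; adjusted p = 0.0381, 0.0104 and 0.0291 by limma). The third, rab35a, rose by 0.33 and passed under none of the 3 other scalings (0.05 under cyclic loess, adjusted p = 0.738), and rab5c did not pass under median scaling (adjusted p = 0.0968). Without CREB fish 3 and 5 the differences were -1.52 for cpa5, -0.57 for stx4, 0.64 for rab5aa, 0.39 for rab5c and 0.35 for rab35a. With fewer arrays none of these passed (adjusted p = 0.0540 to 0.152). The difference of grnas was then 0.91, and it passed. Without control fish 3, 4 and 5, cpa5 passed and grnas did not (limma, adjusted p = 0.0364 and 0.114). The genes stx4, rab5aa, rab5c and rab35a did not pass there either (adjusted p = 0.0911 to 0.264). The priming gene unc13d, needed for cytotoxic granule release in mammals, was at -0.87 ± 0.37 and the SNARE gene stx11a at -1.04 ± 0.36 (SE), and neither passed (limma, adjusted p = 0.0943 and 0.0515), although 1 other probe set of stx11a passed. The vamp3 gene, which also encodes a vesicle SNARE, had a log2 difference of -0.32 ± 0.19 (SE) and did not pass.

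Of 16 other leukotriene and prostaglandin genes that were measured, none fell, 1 rose and 15 did not pass. The lipoxygenase gene alox5b.3 had a log2 difference of 1.06 ± 0.54 and the glutathione transferase gene mgst3a of 0.17 ± 0.25 (SE), and neither passed (limma, adjusted p = 0.153 and 0.618). The cyclooxygenase gene ptgs2a rose by 0.74 ± 0.22 (SE; adjusted p = 0.0310 by limma) at a mean of 4.6 ± 0.37 in CREB fish, against 3.87 ± 0.36 in control fish (n = 5 each, SD), near the tag control level. It did not pass under any of the 3 other scalings (adjusted p = 0.0556 to 0.198). The cyclooxygenase gene ptgs1, at 0.64 ± 0.22, did not pass (adjusted p = 0.0501). Whether the difference of alox5ap is unlike that of these genes was not tested.

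Among 10 metalloproteinase and inhibitor genes other than mmp9 and mmp13a, 1 fell, 2 rose and 7 did not pass, with a median of 0.08. The inhibitor gene timp2b fell by 2.19 ± 0.43 (SE; adjusted p = 0.00785 by limma), to 7.52 ± 0.53 in CREB fish, against 9.71 ± 0.91 in control fish (n = 5 each, SD). The sheddase gene adam10b rose by 0.48 ± 0.12 and the membrane-type metalloproteinase gene mmp14a by 0.48 ± 0.14 (SE; adjusted p = 0.0192 and 0.0306 by limma). The last passed under none of the 3 other scalings, although another of its probe sets was called. Without CREB fish 3 and 5, timp2b and adam10b still passed (adjusted p = 0.0339 and 0.0397). Without control fish 3, 4 and 5, timp2b passed (limma, adjusted p = 0.0183), and adam10b and mmp14a did not (adjusted p = 0.126 and 0.232). Of 13 neutrophil receptor and trafficking genes, 3 fell and none rose, with a median of -0.53. That median was -0.79 without CREB fish 3 and 5, and -1.24 without control fish 3, 4 and 5. The -1.24 rests on control fish 1 and 2, which had the highest mean levels of this list (9.47 and 9.41). The genes that fell were the adhesion gene selp, also a thrombocyte marker, by 1.56 ± 0.35, the cofilin gene cfl1l by 1.27 ± 0.30 and the kinase gene btk by 0.88 ± 0.28 (SE; adjusted p = 0.0121, 0.0143 and 0.0386 by limma). Under quantile normalization btk did not pass (-0.82, limma, adjusted p = 0.0814). Without CREB fish 3 and 5 the differences were -1.54 for selp, -0.97 for cfl1l and -0.98 for btk. With fewer arrays none of these passed (adjusted p = 0.0541 to 0.0842). The chemokine receptor gene cxcr4b, among the 3 most like mmp13a, was at -0.78 ± 0.47 (SE) and did not pass.

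**Figure D5:**
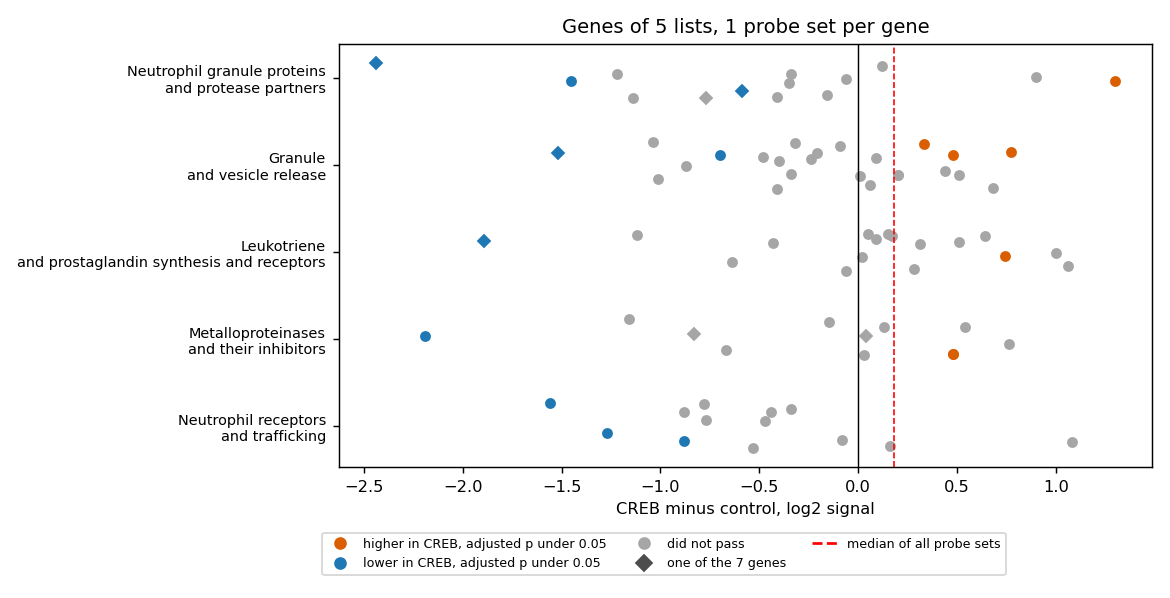
Each point is a gene, by its brightest probe set, placed by its log2 difference CREB minus control in 1 of 5 lists, orange where it rose, blue where it fell and grey where it did not pass. Diamonds mark the 7 genes, of which alox5ap, at -1.89, is the only point of its list that fell.

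Of 6 measured neutrophil markers 3 fell and none rose: srgn, lyz and cpa5, the last also in the mast cell and exocrine pancreas lists. The other measured markers, mpx, ncf1 and ncf4, did not pass. Since srgn, lyz and mpx are among the 7 genes, they add no separate evidence on neutrophils. Of the 3 markers outside the 7, only cpa5 fell, which is also a mast cell marker, and ncf1 and ncf4 did not pass. The median difference of these 3 was -0.16, against -0.68 for all 6. The mean level of the 6 was 9.35 to 10.57 in CREB fish, against 10.17 to 11.08 in control fish. Of 7 thrombocyte markers 3 fell and none rose, with a median difference of -0.56 and a mean level of 5.29 to 5.67 in CREB fish, against 5.46 to 6.57 in control fish. Of 10 macrophage markers 1 fell and none rose, with a median difference of -0.24. Their mean level was 9.27 to 10.67 in CREB fish, against 9.62 to 10.45 in control fish. The macrophage marker that fell was ctss2.1, by 2.19 ± 0.47 (SE; adjusted p = 0.0110 by limma). Of 3 mast cell and eosinophil markers, cpa5 fell, kita rose and gata2a did not pass, with a median difference of -0.03. The gene kita rose by 0.40 ± 0.13 (SE; adjusted p = 0.0402 by limma), at means of 4.73 in CREB fish and 4.33 in control fish, near the tag control level. It did not pass under any of the 3 other scalings. Beside the counts of these marker lists, 6.79% of all probe sets were called lower and 23.5% higher. The oxidase subunit genes ncf1 and ncf4 had log2 differences of -0.16 ± 0.44 and 0.81 ± 0.31 (SE) and did not pass (limma, adjusted p = 0.790 and 0.0667).

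Within an array, the signal of 1 gene minus that of another does not depend on the array's scaling factor. Over the 21 pairs of the 7 genes the groups did not overlap in 2 pairs (9.52%), lyz minus alox5ap and lyz minus vamp8. For pairs of other genes this share was not computed. No pair passed after adjustment over the 21, where pairs at the smallest possible p pass by themselves only if at least 4 reach it.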

How the data were processed

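Biotin-labelled RNA from kidney marrow was hybridised to Affymetrix zebrafish arrays, per the labels' protocols. The deposited table holds 15617 probe sets on 10 arrays, and its log2 unit was read from the deposited values alone. The sources used here do not give how the authors summarised and normalised them. The 115 control probe sets of the platform were left out of the tests. GEO's platform annotation gave the symbols, brought up to date by Entrez ID with RefSeq's gene table (GRCz12tu): 10795 probe sets had 1 symbol, 135 several and 4572 none. The listed thrombocyte marker gp9 was left unmatched, because in that table the name is an alias of another gene. A gene of several probe sets was represented by the brightest.

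The test of CREB against control used R 4.3.3 with limma 3.58.1 (lmFit, eBayes, two-sided, no covariate, no filter, Benjamini-Hochberg over 15502 probe sets). The members, lists and alternatives were chosen with earlier results of these data known. All probe sets of the 7 genes are named, up to 4 genes past the test per list and direction, and the 3 genes most like each member. Genes that did not pass, beyond the 7, were picked as examples after their values were seen. The alternatives were a replicate block, 3 scalings, 2 filters on dim probe sets, trend and robust eBayes, array weights and the leaving out of arrays, 22 in all, of which 2 are the same (without CREB fish 4). The within-array gene pairs, and all alternatives for them and for the counts by fish, were added after the data were seen, as were all alternatives for the lists other than averaging each gene over its probe sets, and for the gene-pair r but the deviations from group means. On data simulated for this comparison with 15502 probe sets and 200 changed, the fit found 62.0% of changes of 1 and 91.0% of changes of 2 (log2) and called 9 unchanged probe sets. The simulated noise was independent between probe sets and had the same SD in both groups. The real arrays differ in this, so these shares do not carry over to them. The labels do not pair fish across groups, and deviations of same-numbered fish correlated at -0.023 to 0.268. The number of arrays limits the precision.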

Additional observations from a re-analysis of the deposited data

Results flagged for a closer look

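Among 66 sets of 5 values tested for a fish far from the others of its group, 3 had one, and chance gives about 1 in 20. The cyclooxygenase gene ptgs2a was at 4.5 in control fish 3, against 3.83 in the next control fish. The mean level of 3 mast cell and eosinophil markers was 6.98 in control fish 3, against 7.92 in the next control fish. The mean level of kidney tubule and glomerulus genes was 7.83 in CREB fish 4, against 8.52 in the next CREB fish. None of the 10 probe sets of the 7 genes had such a fish in either group. The rule looks for 1 fish apart from the rest. It could not flag CREB fish 3 and 5, which lay low together in srgn and the second mpx probe set.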

How the results depend on the processing

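The calls of alox5ap and vamp8 held under all 22 alternatives. The number of probe sets called, 4692, was 2378 with a replicate block, 2852 under quantile normalization, 2837 under cyclic loess, 1526 with a mean of log2 6 or more, 2033 without the dimmest 40%, 369 without control fish 3, 4 and 5, 875 without control fish 4 and 5 and 2034 without CREB fish 3 and 5, and lay between 3125 and 5163 with 1 fish left out. Of the 10 probe sets of the 7 genes, 4 were called, against 2 without control fish 4 and 5, with or without control fish 3, and 3 to 4 with 1 fish left out. The 5 lists held 14, 24, 17, 12 and 13 measured genes, with the 7 among them. Of these genes 17 were called, beside 30.3% of all probe sets. The count was 9 and 11 with the filters on dim probe sets and 29 with array weights. It was 7 without control fish 3, 4 and 5, 3 without control fish 4 and 5, 8 without CREB fish 3 and 5, and 11 to 18 with 1 fish left out. With the replicate block lyz did not pass (limma, adjusted p = 0.0739) and 3 of the 10 probe sets were called. Same-numbered fish correlated at -0.023 to 0.268 in their deviations from the group means. This does not settle whether the numbers pair the fish. The difference of mmp9 turned negative under median scaling (-0.02), array weights (-0.15), without control fish 3, 4 and 5 (-0.35) or 4 and 5 (-0.14), and without CREB fish 3 and 5 (-0.83) or CREB fish 4 (-0.10), and lay between -0.64 and 0.55 with 1 fish left out. That of the third mpx probe set turned negative under cyclic loess (-0.04), without control fish 3, 4 and 5 (-0.32) or 4 and 5 (-0.04), and lay between -0.06 and 0.30 with 1 fish left out. The second mpx probe set passed with array weights, at -1.87. The count of 27 of 35 gene and CREB fish pairs was 20 to 24 of 28 with 1 CREB fish left out and 27 of 35 with 1 control fish left out. The median r of the 21 gene pairs, 0.66, was 0.83 without CREB fish 3 and 5 and 0.64 to 0.79 with 1 fish left out. The number of gene pairs without overlap, 2, was 1 under quantile normalization and under cyclic loess, 5 without CREB fish 3 and 5, and 2 to 5 with 1 fish left out. The causes were not tested, beyond the smaller number of arrays or probe sets in some of these.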

Other observations

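Within an array, the signal of 1 gene minus that of another shows whether 2 signals changed by unequal amounts. It does so whatever single factor the array was scaled by (quantile and loess scaling are not of that kind). This was computed for all 21 pairs of the 7 genes after their values were seen, and tested by exact permutation of the 10 fish (two-sided, 252 arrangements, smallest possible p = 0.00794). In 2 of 21 pairs (9.52%) the groups did not overlap, a share that was not computed for pairs of other genes. Both of these pairs hold lyz, which lay above 99.8% of all probe sets in mean signal. Whether signals that bright are compressed was not tested. The difference lyz minus alox5ap was 4.85 ± 0.39 in CREB fish, against 3.56 ± 0.42 in control fish (n = 5 each, SD; p = 0.00794 by exact permutation, 0.0714 after adjustment). The difference lyz minus vamp8 was 5.48 ± 0.11 in CREB fish, against 4.55 ± 0.47 in control fish (n = 5 each, SD; p = 0.00794 by exact permutation, 0.0714 after adjustment). No pair passed after adjustment over the 21 pairs. With 5 fish a group, pairs at the smallest p pass by themselves only if at least 4 reach it, and 2 did. The lack of a pass therefore says little about whether the changes were equal. For mpx minus lyz the values were -3.31 ± 0.44 in CREB fish, against -3.14 ± 0.45 in control fish (n = 5 each, SD; p = 0.556 by exact permutation, 0.584 after adjustment). For mpx minus alox5ap they were 1.54 ± 0.49 in CREB fish, against 0.42 ± 0.38 in control fish (n = 5 each, SD; p = 0.0159 by exact permutation, 0.0714 after adjustment).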
